A study of Mus musculus with 2 samples.

Results

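Genes of the high mobility group (HMG) chromatin proteins and of the TLR4 alarm receptor were followed through the immune cells of a mouse colon carcinoma. They were chosen by name, as 10 of the 22836 genes in the deposited read table: Hmgn1, Hmgn2, Hmgn3, Hmgn5, Hmgb1, Hmgb2, Tlr4, Ly96, Cd14 and Myd88. All 10 have a row in the table, and they were chosen with earlier results of these data known.

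The HMGN proteins bind nucleosomes and loosen chromatin, and HMGN1 can also leave the cell and act as an alarmin that alerts dendritic cells. HMGB1 and HMGB2 bend DNA in the nucleus, and HMGB1 released by dying cells is a classical danger signal. Extracellular HMGN1 and HMGB1 are both sensed through TLR4, which needs MD-2 (the product of Ly96) at its side, receives ligand from CD14 and passes the signal on through the adaptor MyD88. In tumours this pathway is known for its part in waking antigen-presenting cells after cell death.

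The study asked how minP1, a short peptide derived from HMGN1, and blockade of the checkpoint ligand PD-L1 change the immune cells of a tumour. Wild type BALB/c mice received Colon26 cells, a mouse colon carcinoma line, under the skin of the right flank, and CD45+ cells of the tumours were read as single cells by the BD Rhapsody whole-transcriptome assay. The 3 Control mice were untreated, 4 mice (minP1) received 0.08 µg of the peptide on day 9, 3 mice (PDL1) received 200 µg of the anti-PD-L1 antibody 10F.9G2 on days 4 and 8, and 4 mice (minP1_PDL1) received both. All tumours were taken on day 10, and all mice share strain, tumour line and site. The tissue was digested with enzymes and enriched on a Percoll gradient, and the cells of each mouse carried their own hashtag antibody. The labels place the cDNA of all mice in the same library. The sequencing run of each mouse is not among the labels used here, and so run and treatment cannot be told apart.

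After removal of 383 cells with over 25% mitochondrial reads, 7732 of the 8115 barcodes assigned to a mouse were kept, beside the 7613 cells that the submitters state. Each mouse gave 466 to 724 cells and 26007834 to 51230461 reads. The counts behave as reads and not as single molecules: the median nonzero entry was 10 reads and 18.0% of entries were 1. The exact interval of a share of cells below therefore covers counting error only, while the edgeR intervals also carry the spread between mice. Cells were clustered without the 10 genes and without the pathway lists used below, and clusters were named from marker genes, so that each class name stands for cells that are like that class. Macrophages (1581 cells), NK cells (1346), T cells (719, not named as one of the other T cell classes), monocytes (686), regulatory T cells (639), neutrophils (564), CD8 T cells (310), conventional dendritic cells (283) and plasmacytoid dendritic cells (168) were the larger classes. A further cluster of 492 cells carried the matrix markers Col1a2, Mgp and Ogn and had only 46.9 CPM (counts scaled to a common library total) of Ptprc, the gene of CD45. It stands against the CD45+ label and is called the Ptprc-low matrix cluster here. Depth and doublet scores differed between classes: macrophages had a median of 104079 reads per cell and 63.8% of them a high doublet score, T cells 17086 reads and 1.67%. No cell was removed for its doublet score, which was high in 26.2% of all cells and in 73.2% of simulated doublets.

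On the mm10 build (GENCODE M21) all 10 are protein-coding genes. Hmgn1 lies at chr16:96120618-96127729, Hmgn2 at chr4:133964738-133968650, Hmgn3 at chr9:83109948-83146685 and Hmgn5 at chrX:109004534-109013404, all on the minus strand. Hmgb1 lies at chr5:149046702-149184489 on the minus strand and Hmgb2 at chr8:57511907-57515999 on the plus strand. Tlr4 at chr4:66827584-66930284 and Ly96 at chr1:16688051-16709611 are on the plus strand, Cd14 at chr18:36725067-36726798 and Myd88 at chr9:119335934-119341411 on the minus strand.

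Near-identical copies limit what some of the counts can say, since the aligner may have split reads between them. Hmgn2 had 149575 reads, and annotated copies of it that align over at least 200 bases at 95% identity or more took another 58305 reads, 39.0% of the gene's own count. Hmgb1 had 284141 reads with 21.9% as many in its copies, and Hmgb2 298290 reads with 6.09% in the pseudogene Gm13237. Transcripts of Myd88 share 224 bases with the overlapping gene Acaa1a, which had 19506 reads, 56.4% of the Myd88 count. Hmgn1, Hmgn3, Hmgn5, Tlr4, Ly96 and Cd14 had no copy with reads of its own in the table. Adding the reads of the pseudogene copies changed no call below. The reads of Acaa1a, a protein-coding gene, were not added, so the call of Myd88 was not checked in this way.

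Hmgb2, Hmgb1, Hmgn1 and Hmgn5 were higher in dividing cells, as described further on. The DNA words CCAAT (the NF-Y word) and TTTGAA (the CHR word), common at cell-cycle genes, were searched in promoter windows of the members. Only the windows that held a match are printed, so the matches do not set these genes apart. No window is given here for Hmgn3, Tlr4, Ly96 and Cd14. The 200 bases before the start given by RefSeq (GRCm38.p6) are printed 5′ to 3′ on the gene's strand, with matches on either strand in capitals. The windows lie at chr8:57511643-57511842 (plus strand), chr5:149053058-149053257 (the upstream one of 2 Hmgb1 starts), chr16:96127726-96127925 and chrX:109013381-109013580 (all 3 minus strand).
Hmgb2 promoter: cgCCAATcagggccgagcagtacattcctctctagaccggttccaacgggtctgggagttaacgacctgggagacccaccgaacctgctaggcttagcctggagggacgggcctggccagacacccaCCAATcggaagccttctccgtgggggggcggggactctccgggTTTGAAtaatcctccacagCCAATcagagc
Hmgb1 promoter: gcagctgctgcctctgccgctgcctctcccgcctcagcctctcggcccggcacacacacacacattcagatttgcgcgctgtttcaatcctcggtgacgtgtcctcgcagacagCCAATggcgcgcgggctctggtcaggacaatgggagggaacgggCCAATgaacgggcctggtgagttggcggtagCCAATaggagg
Hmgn1 promoter: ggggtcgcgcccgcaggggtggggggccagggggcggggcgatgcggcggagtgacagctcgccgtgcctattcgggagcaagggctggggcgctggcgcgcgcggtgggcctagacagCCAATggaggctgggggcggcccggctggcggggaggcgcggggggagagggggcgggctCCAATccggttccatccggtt
Hmgn5 promoter: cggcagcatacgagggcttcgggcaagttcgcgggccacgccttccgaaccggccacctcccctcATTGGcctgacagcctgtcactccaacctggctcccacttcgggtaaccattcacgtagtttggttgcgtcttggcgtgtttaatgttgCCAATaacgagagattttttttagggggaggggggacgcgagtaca
Hmgb2 held 3 CCAAT words and 1 TTTGAA word, Hmgb1 held 3 CCAAT words, and Hmgn1 and Hmgn5 held 2 CCAAT words each. Over all 32851 windows of this length, 29.3% held at least 1 CCAAT and 12.5% at least 1 TTTGAA. The E2F words TTTGGCG and TTTCGCG, found in 1.03% and 0.563% of windows, were in none of these 4. The Hmgn2 window at chr4:133967992-133968191, the other Hmgb1 window and the Myd88 window held none of the 4 words. The first 30 bases that RefSeq transcribes were not found near the start of a GENCODE M21 transcript for the Hmgb2 and upstream Hmgb1 windows, and were found for the other windows named here. A match is a description of the letters and not of a bound factor.

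Among the classes the HMGN genes had 4 different patterns. Levels are the CPM of the reads summed per mouse and class, given as mean ± SD over the mice with at least 10 cells of the class, and they are compared within a gene only. Orders are over the 11 named classes with a level in at least 3 mice. Mast cells or basophils had a level in only 2 mice and are left out of them. Hmgn1, the parent gene of the peptide, was highest in the Ptprc-low matrix cluster, at 386 ± 51.3 CPM (SD, n = 14; 311.9 to 449), above conventional dendritic cells in 14 of 14 mice. Among immune classes Hmgn1 was at 122 ± 59.0 CPM in conventional dendritic cells, 103 ± 20.3 in macrophages and 94.8 ± 42.0 (n = 11) in plasmacytoid dendritic cells. These 3 did not separate: conventional dendritic cells exceeded macrophages in 8 of 14 mice. The lowest Hmgn1 level was in monocytes, at 27.3 ± 23.9 CPM.

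Hmgn2 was led by CD8 T cells at 495 ± 95.4 CPM (355 to 667) and regulatory T cells at 421 ± 88.6, with CD8 T cells higher in 11 of 14 mice. Mast cells or basophils had a higher mean in their 2 mice, 529 ± 222 CPM (SD, n = 2). The remaining T cells had the lowest mean of the 11 classes, 140 ± 59.9 CPM, so that T cell classes held both ends of that order. A small unnamed cluster of 120 cells led by the histone gene Hist1h2ao, 88.3% of whose cells had reads of the proliferation gene Mki67, was at 932 ± 99.6 CPM (n = 6). Hmgn3 was led by plasmacytoid dendritic cells, at 63.6 ± 23.2 CPM (29.8 to 99.0, n = 11), above the Ptprc-low matrix cluster (34.2 ± 14.3) in 9 of 11 mice. Conventional dendritic cells followed at 33.3 ± 24.7 CPM and macrophages had 5.67 ± 3.26. No read of Hmgn3 was found in CD8 T cells of any of the 14 mice. After thinning every cell to 10000 reads, 41 of 167 plasmacytoid dendritic cells (24.6%) had reads of Hmgn3 and none of the CD8 T cells did, which allows up to 1.19% of CD8 T cells with a read at this depth and sets no limit on cells that express the gene. Hmgn5 was led by CD8 T cells (69.0 ± 33.9 CPM), ahead of regulatory T cells in 10 of 14 mice, and was low in plasmacytoid dendritic cells (14.4 ± 13.4), the class that led Hmgn3.

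Hmgb1 and Hmgb2 shared both ends of their orders over the 11 classes, with CD8 and regulatory T cells high and monocytes lowest, and differed in between. CD8 T cells had 815 ± 152 CPM of Hmgb1 and 1324 ± 352 CPM of Hmgb2 (449 to 1830), and regulatory T cells 751 ± 151 and 1133 ± 236 CPM. CD8 T cells exceeded regulatory T cells in 9 of 14 mice for Hmgb1 and in 10 of 14 for Hmgb2, so these 2 classes did not separate. For Hmgb2 regulatory T cells stood above the remaining T cells (559 ± 162 CPM) in 14 of 14 mice. NK cells exceeded macrophages in Hmgb1 in 12 of 14 mice, at 593 ± 59.3 against 506 ± 41.1 CPM, while for Hmgb2 macrophages had the higher mean, 548 ± 66.6 against 505 ± 66.0 CPM. Mast cells or basophils had 870 ± 162 CPM of Hmgb1 in 2 mice, above the mean of CD8 T cells. Monocytes were lowest for both genes, at 291 ± 44.7 CPM of Hmgb1 and 210 ± 48.9 CPM of Hmgb2. The Hist1h2ao cluster was above every named class, at 1322 ± 198 and 2474 ± 662 CPM. Reads of Mki67, which mark dividing cells, were in 45.2% of CD8 T cells, in 9.84% and 90% of the larger and the smaller regulatory T cell cluster (569 and 70 cells), in 6.12% of the remaining T cells and in 7.73% of monocytes.

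**Figure D1:**
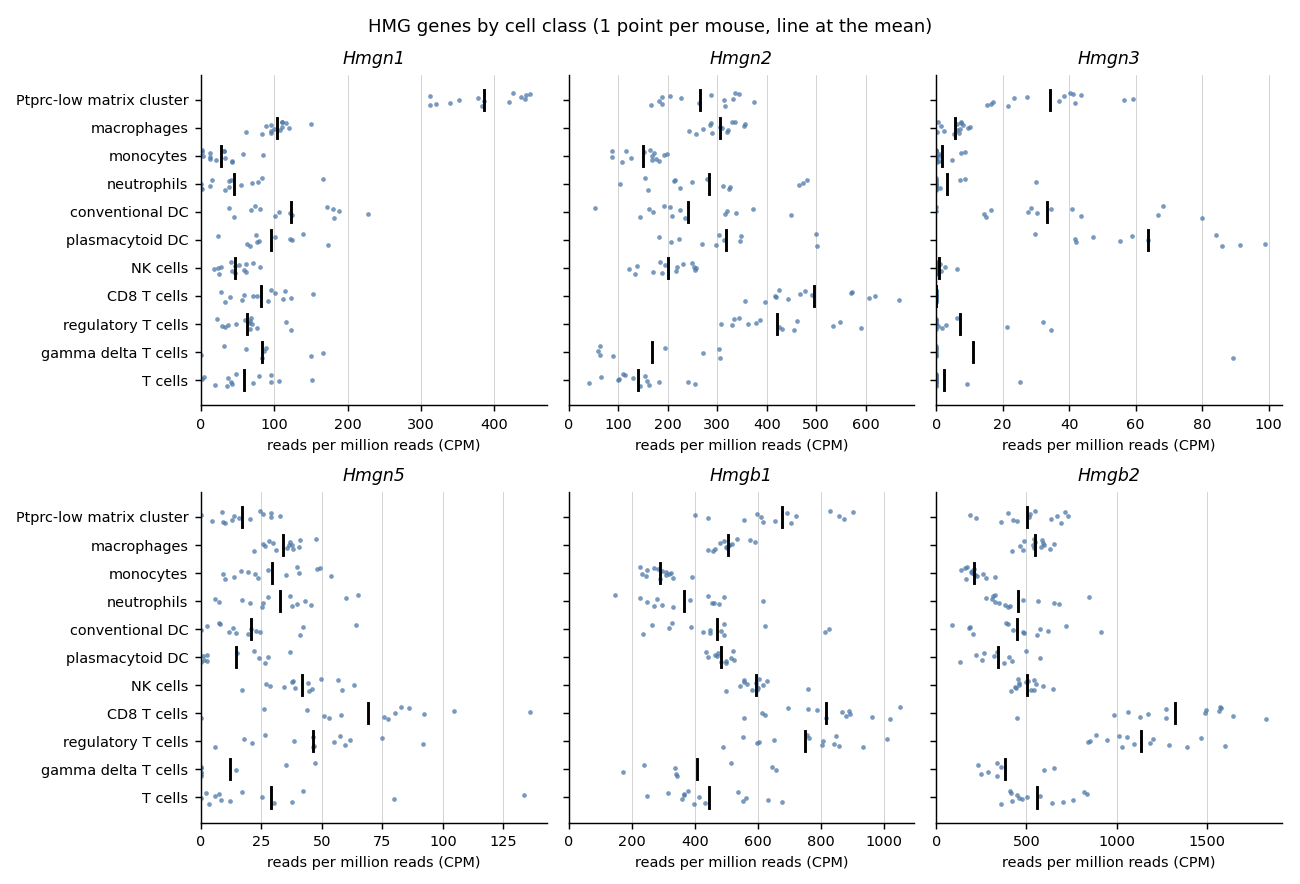
Levels of the 6 HMG genes in the named cell classes (CPM of summed reads on the horizontal axis, classes on the vertical axis, 1 point per mouse, bar at the mean). Hmgn1 peaks in the Ptprc-low matrix cluster at a mean of 386 CPM, Hmgn3 in plasmacytoid dendritic cells at 63.6 CPM, and Hmgn2, Hmgn5, Hmgb1 and Hmgb2 in CD8 T cells, among the classes with a level in at least 3 mice.

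The receptor genes were each highest in a myeloid class, and Myd88 was spread more widely than the others. Over neutrophils, monocytes, macrophages, conventional and plasmacytoid dendritic cells, Tlr4 and Cd14 had the same falling order of means. The Ptprc-low matrix cluster did not keep to it. Its Tlr4 level, 26.5 ± 22.4 CPM, was above the means of conventional (22.1 ± 17.3) and plasmacytoid dendritic cells (16.0 ± 20.2). Its Cd14 level, 72.7 ± 47.6 CPM, was below both. Ly96 and Myd88 were highest in monocytes. Tlr4, the signalling receptor, was highest in neutrophils at 222 ± 83.0 CPM (82.8 to 392), then monocytes at 95.9 ± 30.9 and macrophages at 47.8 ± 11.8. The neutrophil level depended on how cells were weighted: it was 346 CPM with equal weight per cell and 421 without cells of high doublet score. Neutrophils exceeded monocytes in 12 of 14 mice and monocytes exceeded macrophages in 14 of 14. Ly96, the gene of the MD-2 subunit that holds the ligand, instead led in monocytes at 35.6 ± 17.7 CPM, with macrophages at 24.2 ± 6.75 and neutrophils at 21.3 ± 24.5. Monocytes exceeded macrophages in 11 of 14 mice, and 3 of 14 mice had no read of Ly96 in their neutrophils.

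Cd14, the co-receptor that hands ligand to the complex, was by far the most read of the 4, with 378489 reads in all. Neutrophils had 2178 ± 494 CPM and monocytes 1970 ± 336, with neutrophils higher in 10 of 14 mice. The neutrophil level was 2985 CPM with equal weight per cell and 3701 without cells of high doublet score. Macrophages followed at 1037 ± 106 CPM, below monocytes in 14 of 14 mice, then conventional dendritic cells at 692 ± 346 and plasmacytoid dendritic cells at 562 ± 212. T cells, NK cells, regulatory T cells and CD8 T cells were at 31.3 to 42.2 CPM, and gamma delta T cells at 182 ± 293 (n = 8). Myd88, the adaptor used by most Toll-like receptors, was spread more widely: 159 ± 34.7 CPM in monocytes, 148 ± 50.9 in neutrophils, 129 ± 51.1 in conventional dendritic cells and 39.0 ± 11.2 in NK cells. Macrophages, at 67.7 ± 9.61 CPM, stood little above CD8 T cells (53.4 ± 24.5), the remaining T cells (49.7 ± 34.7) and regulatory T cells (47.1 ± 32.4). Monocytes and neutrophils did not separate, with monocytes higher in 8 of 14 mice.

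**Figure D2:**
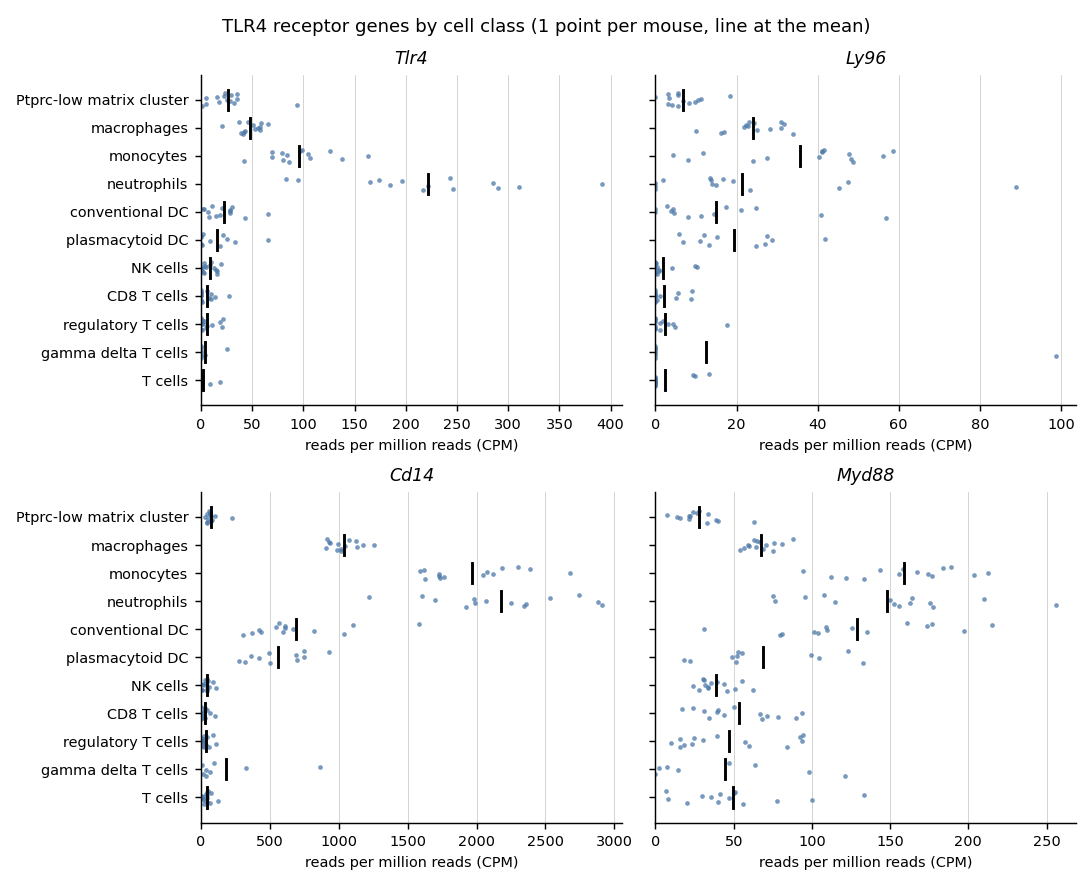
Levels of Tlr4, Ly96, Cd14 and Myd88 in the named cell classes (CPM of summed reads on the horizontal axis, classes on the vertical axis, 1 point per mouse, bar at the mean). Tlr4 and Cd14 are highest in neutrophils (means 222 and 2178 CPM), Ly96 and Myd88 in monocytes (35.6 and 159 CPM).

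Shares of cells with reads kept part of this order once depth was set equal. In cells thinned to 10000 reads, leaving out 605 shallower cells, Tlr4 was read in 161 of 448 neutrophils (35.9%, exact 95% interval 31.5 to 40.6), 157 of 674 monocytes (23.3%) and 290 of 1422 macrophages (20.4%). T cells, which should lack the complex, gave 3 of 622 (0.482%) for Tlr4. Without thinning the shares were 37.9% of neutrophils, 30.9% of monocytes, 33.5% of macrophages and 0.556% of T cells. Ly96 was read in 10.5% of thinned macrophages, 9.79% of monocytes, 4.91% of neutrophils and 0.482% of T cells. Unthinned shares of Ly96 were 18.8%, 12.97%, 4.79% and 0.417%. Cd14 was read in 94.7% of thinned monocytes, 92.8% of macrophages and 88.8% of neutrophils, against 7.88% of T cells. Unthinned, it was read in 96.1%, 90.2%, 89.0% and 9.87%. Both receptor subunits together were seldom read in 1 cell: Tlr4 and Ly96 were both found in 34 of 1422 macrophages (2.39%), 15 of 674 monocytes (2.23%) and 7 of 448 neutrophils (1.56%), and in 0 of 622 T cells. The product of the separate shares is 2.14%, 2.28% and 1.76% in the same classes, so the joint share was close to what the separate shares give.

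Over the 11 named classes with at least 50 cells and a level in at least 3 mice, the genes most like each member were ranked by Pearson's r of log2(CPM + 1) among 11375 genes. These values are descriptions over 11 classes that come from the same libraries. Cd14 ran with Ly96 (r = 0.96) and less closely with Tlr4 (0.83) and Myd88 (0.83), while Tlr4 and Ly96 had 0.75. Hmgb1 and Hmgb2 had 0.86 with each other, Hmgn2 and Hmgb2 0.72, and Hmgn1 and Hmgn2 only 0.29. Hmgn3 and Hmgn5 ran in opposite directions at -0.80, as did Hmgb1 and Cd14 at -0.77. The genes most like Tlr4 were Sfxn5 (0.98), Tnfaip2 (0.96) and Pfkfb4 (0.96), and those most like Ly96 were AI607873 (0.97), Mospd2 (0.97) and the complement gene C3 (0.96). For Cd14 they were LOC100038947, Il18 and Aldh3b1 (0.98 to 0.99), and for Myd88 Chmp4b, Ifitm6 and Slfn5 (0.94 to 0.96). For Hmgb1 they were its copy Gm21596 (0.98), G3bp1 (0.96) and the replication clamp gene Pcna (0.96). For Hmgb2 they were Gm20875 (0.98), its copy Gm13237 (0.98) and the condensin gene Smc4 (0.97). For Hmgn2 they were its copy Gm7931 (1.00), the replication licensing inhibitor Gmnn (0.93) and Hist1h3c (0.93). Hmgn1 was most like Cryz, Stub1 and 1110065P20Rik (0.92 to 0.94), Hmgn3 like Rab30, Gnb4 and Epha2 (0.88 to 0.92), and Hmgn5 like Ptpn5, Pold3 and Raph1 (0.90 to 0.92).

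None of the 10 genes passed the test between treatments in any class. From here on, T cells are the CD8, regulatory, gamma delta and remaining T cells together, except where a kind is named. Dendritic cells are the conventional and plasmacytoid ones and a small cluster of mature ones together. Reads were summed per mouse and class and compared by edgeR's quasi-likelihood test with Benjamini-Hochberg adjustment over all genes, for the 3 treatments against Control, the combination against each single treatment, and the interaction. Over 36 comparisons (6 contrasts in 6 classes) and 348 tests of these genes, 0 were called at an adjusted p under 0.05, and DESeq2 also called 0. The smallest adjusted p was 0.386. The background was equally empty: 0% of genes were called in 35 of the 36 comparisons, and 1 of 12618 genes (0.00793%) in T cells of mice given both treatments against Control. At an unadjusted p under 0.05 there were 23 of the 348 tests (6.61%). By class these were 4 of 60 in all CD45+ cells (background over all genes 6.44%), 0 of 60 in T cells (4.58%), 3 of 54 in NK cells (5.1%), 5 of 60 in monocytes and macrophages (5.78%), 7 of 60 in dendritic cells (4.52%) and 4 of 54 in neutrophils (4.45%). The contrasts share mice, so these tests are not independent.

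Monocytes and macrophages together, the largest myeloid class, carry the receptor complex and gave narrow intervals for the peptide alone. Tlr4 was at 46.6, 53.5 and 68.7 TMM-scaled CPM in the Control mice and at 60.7, 67.7, 57.6 and 66.3 in the minP1 mice. The groups overlapped, and the edgeR log2 difference was 0.15 (SE 0.19). Cd14 was at 1131, 1247 and 1309 CPM in Control and at 1419, 1286, 1230 and 1291 in minP1. The minP1 mouse at 1419 CPM stood above all Control mice and the other 3 among them, with a log2 difference of 0.08 (95% interval -0.09 to 0.25). Ly96 (32.4, 26.0 and 29.3 against 19.5, 33.9, 31.7 and 25.9 CPM) overlapped as well, with a log2 difference of -0.09 (SE 0.31). Myd88 differed by -0.10 (SE 0.13) on the log2 scale.

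The HMG genes of the same cells differed no more. Hmgn1, whose product is the source of the peptide, was at 92.0, 101 and 102 CPM in Control and at 107, 109, 82.0 and 99.8 in minP1, a log2 difference of 0.01 (SE 0.19). Hmgb1 was at 480, 543 and 457 CPM in Control and at 482, 487, 475 and 482 in minP1, a difference of -0.05 (SE 0.08). All 4 minP1 mice lay inside the range of the Control mice. Hmgb2 differed by 0.05 (SE 0.13), Hmgn2 by -0.05 and Hmgn5 by -0.21 (SE 0.23). For 9 of the 10 genes the 95% interval of the minP1 difference lay within a 2-fold change in either direction, so that a larger change of the mean is outside it. The exception was Hmgn3, at 0.66 (SE 0.72), which had 6943 reads over all cells, the fewest of the 10.

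**Figure D3:**
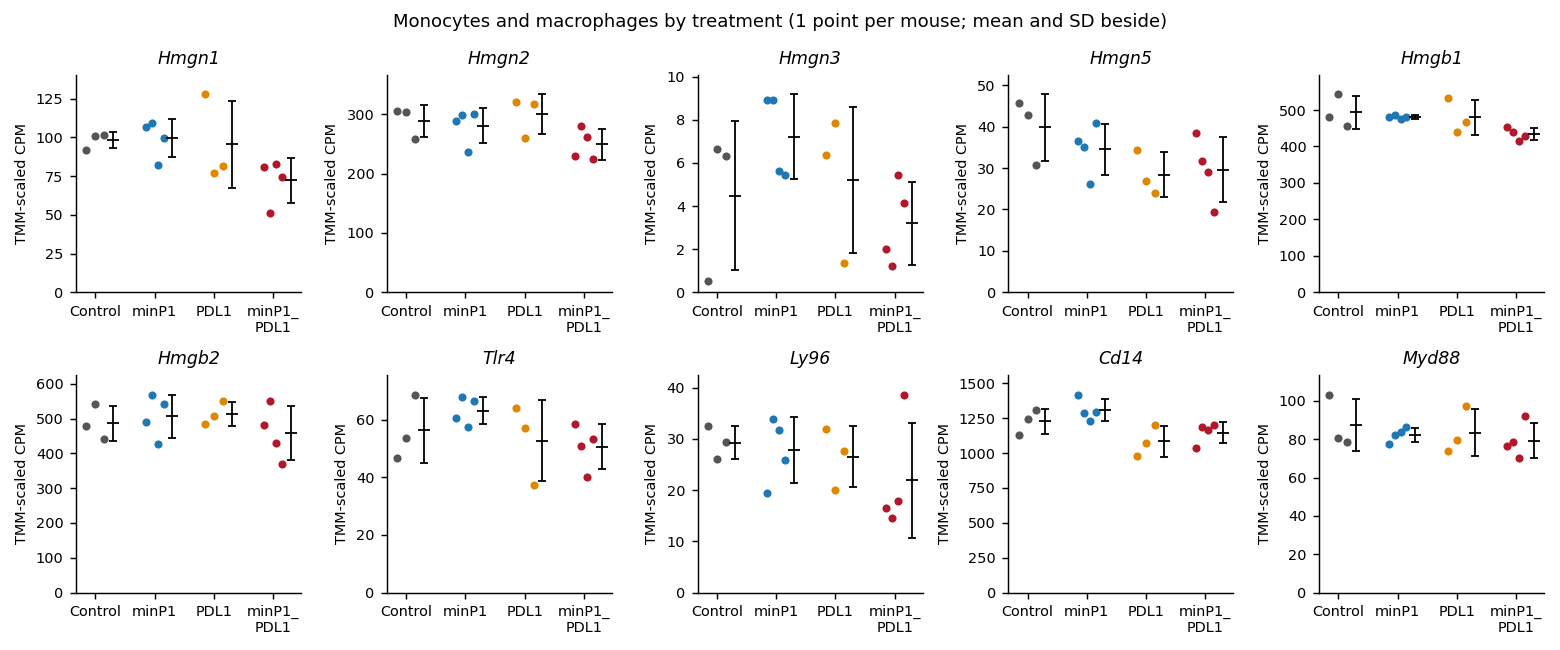
The members in monocytes and macrophages by treatment group (TMM-scaled CPM on the vertical axis, 1 point per mouse, mean and SD of each group). The minP1 mice lie among or close to the Control mice, as for Hmgb1 (475 to 487 against 457 to 543 CPM).

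With both treatments, Hmgn1 in monocytes and macrophages was at 80.8, 51.1, 82.5 and 74.7 CPM. All 4 mice were below the lowest Control mouse, and the log2 difference from Control was -0.43 (SE 0.19, unadjusted p = 0.0366, adjusted p = 0.740, edgeR). It was -0.20 when each cell was given equal weight. Hmgb1 was at 453, 441, 415 and 428 CPM in these mice, also all below Control, with a log2 difference of -0.18 (unadjusted p = 0.0352, edgeR). Neither passed the test.

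In all CD45+ cells together the same genes had the smallest adjusted p of the whole set. Hmgn1 was at 177, 160 and 174 CPM in Control, at 171, 122, 97.0 and 130 in minP1, at 176, 94.4 and 115 in PDL1 and at 140, 92.3, 95.4 and 111 with both. The combined-treatment mice were all below the Control mice, with a log2 difference of -0.63 (SE 0.21, adjusted p = 0.386, edgeR). Hmgb1 was at 638, 616 and 566 CPM in Control and at 540, 559, 463 and 501 with both, a difference of -0.23 (SE 0.08, adjusted p = 0.386, edgeR), and these groups did not overlap either. The Ptprc-low matrix cluster, where Hmgn1 was highest, made up 10.4 ± 2.73% of the cells in Control (SD, n = 3), 4.02 ± 1.66% in minP1 (n = 4), 7.32 ± 5.64% in PDL1 (n = 3) and 5.59 ± 3.67% with both (n = 4). Without the clusters that are not immune cells the differences were -0.32 for Hmgn1 and -0.13 for Hmgb1. In such sums, fewer cells of a type and less RNA per cell cannot be told apart.

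In neutrophils Tlr4 and Myd88 had higher means in treated mice, on few cells in Control, and neither passed the test. Tlr4 was at 219, 83.5 and 93.0 CPM in Control, at 274, 389, 191 and 211 in minP1, at 172, 206 and 166 in PDL1 and at 326, 287, 262 and 224 with both. The combined-treatment mice were all above the Control mice, whose values were far apart, with a log2 difference of 1.05 (SE 0.38, unadjusted p = 0.0128, adjusted p = 0.704, edgeR). For minP1 the difference was 1.03 (adjusted p = 0.773, edgeR) and the groups overlapped. Myd88 was at 97.4, 75.5 and 93.8 CPM in Control, at 73.6, 114, 182 and 154 in minP1, at 162, 220.0 and 151 in PDL1 and at 160, 253, 166 and 184 with both. Both groups given the antibody lay above Control, with log2 differences of 0.98 (SE 0.40) for PDL1 and 1.08 (SE 0.38, adjusted p = 0.704, edgeR) for both. The Control mice had only 12, 20 and 23 neutrophils, a share of 3.39 ± 1.09% of cells against 9.55 ± 2.31% with both treatments. Marker levels moved too: the summed neutrophil markers were 9501 to 20869 CPM in Control and 23683 to 33304 with both, the macrophage markers 1133 to 2226 and 277 to 1920. Their part in the result was not tested. Without cells of high doublet score, when only 1 Control mouse kept 10 neutrophils, the differences with both treatments were 0.56 for Tlr4 and 0.11 for Myd88, and the Myd88 difference for PDL1 turned to -0.33. Without the Control mouse of 12 neutrophils, whose Tlr4 value was the high one of that group, the Tlr4 difference was 1.63.

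In dendritic cells Cd14 had the smallest unadjusted p of all 348 tests. It was at 660, 1231 and 776 CPM in Control, at 484, 654, 683 and 554 in minP1, at 691, 574 and 598 in PDL1 and at 381, 374, 740 and 391 with both. With both treatments, 3 of 4 mice were below every Control mouse and the other was among them. The log2 difference was -0.91 (SE 0.24, unadjusted p = 0.00179, adjusted p = 0.866, edgeR) and ran from -1.22 to -0.61 when single mice were left out. Monocyte markers in the dendritic cell sums were at 5055 to 5383 CPM in Control and at 3391 to 4766 with both. In Control sums of monocytes and macrophages they were at 4513 to 5564 CPM. Control NK cells had 2058 to 2407 CPM of the same markers and Control T cells 1033 to 1234, so the sum was not confined to monocytes. Conventional dendritic cells made up a mean of 2.92% of cells in Control and 4.13% with both, plasmacytoid ones 2.45% and 2.08%. The part of these markers and shares in the difference was not tested. Tlr4 in dendritic cells was at 6.05, 24.2 and 7.22 CPM in Control and at 26.3, 49.6, 25.5 and 54.3 in minP1, all above Control. Its log2 difference of 1.64 (SE 0.72, unadjusted p = 0.0366, edgeR) was 0.21 without cells of high doublet score.

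In T cells of all kinds together no member reached an unadjusted p under 0.05 in any contrast. Hmgb2 was at 988, 1219 and 940 CPM in Control and at 807, 869, 907 and 1259 in minP1, with overlapping groups and a log2 difference of -0.13 (SE 0.16). Hmgn1 differed by 0.24 (SE 0.32) between these groups and Hmgb1 by -0.06 (SE 0.16). Tlr4, Ly96 and Hmgn3 were too sparse in T cells for a narrow interval. In NK cells Ly96 was listed at 0, 0.186 and 0 CPM in Control and at 0, 9.76 and 10.5 in PDL1, levels at which no fold is given.

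**Figure D4:**
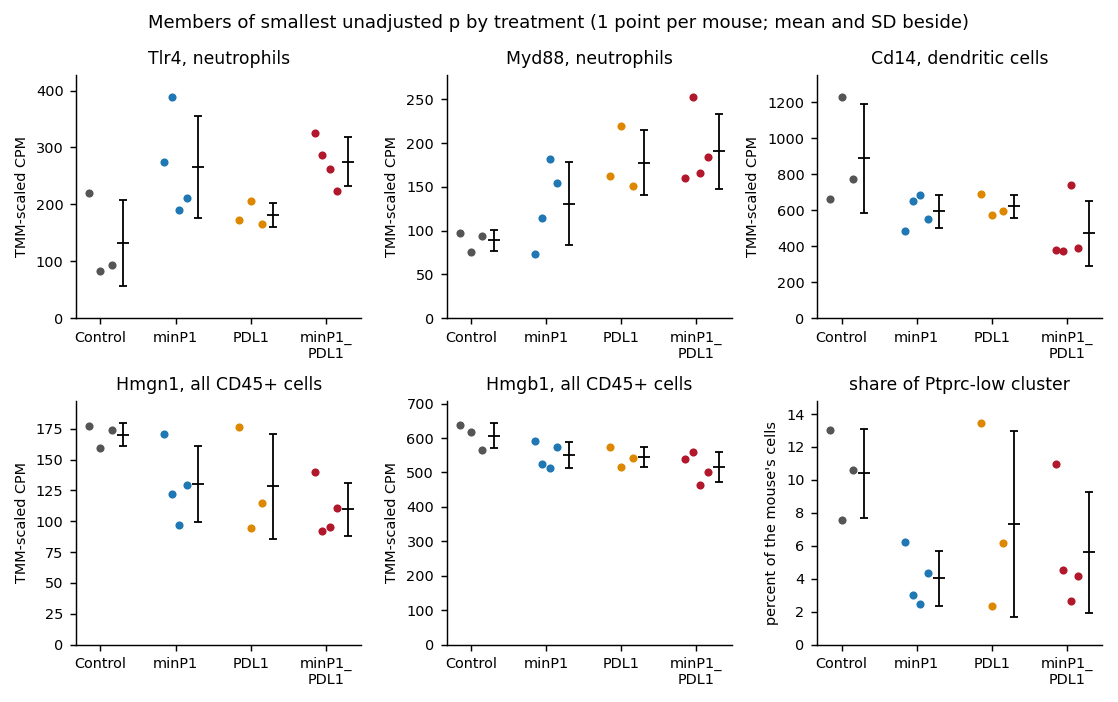
The gene and class pairs with the smallest unadjusted p between treatments (TMM-scaled CPM on the vertical axis, 1 point per mouse, mean and SD of each group). None passed the adjusted threshold, and the Control values of Tlr4 in neutrophils run from 83.5 to 219 CPM.

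The other genes of the pathway were taken from 5 lists chosen for it, and none of their genes was called in any comparison either. In monocytes and macrophages of minP1 mice against Control, 16 of 18 tested genes induced through TLR4 (cytokines, chemokines and enzymes such as Tnf, Il1b and Ptgs2) had values below 0, with a median log2 difference of -0.20 beside 0.01 over all genes. Of 9 inhibitors of the pathway, such as Nfkbia and Tnfaip3, 8 were below 0, with a median of -0.15. The adaptors and kinases of the pathway were divided, with 12 of 21 above 0 and a median of 0.04. Of 9 other receptors of HMGB1 and co-receptors of TLR4, such as Tlr2 and Cd36, 7 were above 0 (median 0.20), and of 5 relatives among the HMG genes 3 were (median 0.13). With both treatments against Control, 10 of 18 induced genes and 6 of 9 inhibitors were above 0. This comparison uses the same Control mice. Genes of a list were read in the same mice and are not independent, and the share of all genes below 0 was not counted. The counts of signs are therefore a description and not a test of the lists. Markers moved with the minP1 comparison as well: in the same sums the macrophage markers were at 2733 to 3031 CPM in Control and 2963 to 4595 in minP1, the T cell markers at 1078 to 1412 and 890 to 1232 CPM, and the neutrophil markers at 579 to 712 and 418 to 593 CPM. Their part in the counts of the lists was not tested.

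Ccl3, Tnip1 and Ptgs2 had the smallest unadjusted p among these lists for minP1 in monocytes and macrophages. Ccl3, a chemokine, was at 293, 392 and 317 CPM in Control and at 259, 216, 267 and 231 in minP1, with a log2 difference of -0.47 (SE 0.15, unadjusted p = 0.00705, adjusted p = 1.00, edgeR). The PDL1 mice, at 267, 284 and 188 CPM, were also all below Control, with a log2 difference of -0.43 (unadjusted p = 0.0175, edgeR). In all CD45+ cells together Ccl3 had the opposite sign for minP1, at 0.34 (unadjusted p = 0.0306, adjusted p = 0.695, edgeR). Tnip1, which restrains NF-kappaB signalling, was at 58.4, 61.0 and 57.2 CPM in Control and at 34.6, 53.7, 53.0 and 39.9 in minP1, a difference of -0.39 (SE 0.15). Ptgs2, the inducible cyclooxygenase, was at 356, 257 and 256 CPM in Control and at 164, 187, 254 and 196 in minP1, a difference of -0.55 (SE 0.24). For all 3 the minP1 mice lay below the Control mice without overlap, and none passed the test over all genes. The 3 were picked for their small p in this same comparison, so the separation adds nothing to it. The share of all genes with such separation was not counted. With both treatments Tnip1 was at 64.8, 63.5, 75.1 and 65.8 CPM, above every Control mouse.

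Of the 10 genes, 5 were called between dividing and other cells in T cells, where 3 could not be tested, 9 in monocytes and macrophages and 1 in NK cells. Cells with reads of both Mki67 and Top2a, 2 genes of dividing cells, were called cycling and compared with cells that had reads of neither, with the mouse as a block in the edgeR test. In T cells of all kinds (14 mice, 177 cycling and 1361 other cells) all 5 HMG genes that could be tested rose, and 2 receptor-side genes, Cd14 and Myd88, were not called. In monocytes and macrophages (14 mice, 356 and 1418 cells) the same 5 HMG genes rose while Tlr4, Ly96, Cd14 and Myd88 fell. Hmgb2, Hmgb1, Hmgn1 and Hmgn5 are the genes whose promoters are printed above, and Hmgn2, whose window held none of the words searched, rose with them.

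In T cells Hmgb2 was at 2337 ± 308.7 TMM-scaled CPM in cycling cells (1832 to 3042) and at 456 ± 61.5 in the others (347 to 528), with no overlap between the 14 mice of either side. The log2 difference was 2.33 (SE 0.09, adjusted p = 1.86e-14, edgeR). Hmgn2 was at 836 ± 163 CPM (552 to 1164) against 156 ± 44.9 (74.9 to 220.1), a log2 difference of 2.43 (SE 0.16, adjusted p = 1.27e-10, edgeR). Hmgb1 was at 1184 ± 112 (1025 to 1426) against 461 ± 77.4 CPM (368 to 576), a difference of 1.35 (SE 0.09, adjusted p = 1.65e-10, edgeR). For these 3 genes the sides did not overlap, and cycling cells were higher in 14 of 14 mice. Hmgn5 rose by 1.21 (SE 0.30, adjusted p = 0.00421, 13 of 14 mice) and Hmgn1 by 0.97 (SE 0.29, adjusted p = 0.0173, 11 of 14 mice). Cd14 differed by -1.02 (adjusted p = 0.176) and Myd88 by -0.41 (adjusted p = 0.545), while Hmgn3, Tlr4 and Ly96 had too few reads to be tested. Of all 8764 genes tested in T cells, 10.5% were called higher and 14.2% lower, with a median of -0.30.

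Cycling T cells were read more deeply, at a median of 74362 against 18431 reads per cell, and 14.7% against 3.82% of them had a high doublet score. Among cells of at least 50000 reads, which left 8 mice, Hmgb2 (2.36), Hmgb1 (1.33) and Hmgn2 (1.40) were called and Hmgn1 (0.68, adjusted p = 0.862) and Hmgn5 (0.29, adjusted p = 0.943) were not. Without cells of high doublet score all 5 were called, as was Cd14 at -1.64 (adjusted p = 0.0482). The summed macrophage markers were at a median of 27.1 against 106 CPM in cycling and other T cells, the monocyte markers at 1146 against 1458 and the NK cell markers at 745 against 665.

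The cycling T cells were also of other kinds. CD8 T cells made up 57.6% of the cycling and 10.1% of the other T cells, regulatory T cells 39.0% and 33.8%, and the remaining T cells 3.39% and 47.0%. Within CD8 T cells alone (10 mice, 89 cycling and 114 other cells) Hmgb2 (2.66), Hmgn2 (2.08) and Hmgb1 (1.18) rose, and Hmgn1 (1.14, adjusted p = 0.439, edgeR) and Hmgn5 (0.78, adjusted p = 0.729, edgeR) were not called. Within regulatory T cells alone (7 mice, 46 and 237 cells) Hmgn2 (2.67), Hmgb2 (2.47) and Hmgb1 (1.40) rose, and Hmgn1 (1.57, adjusted p = 0.544, edgeR) and Hmgn5 (1.68, adjusted p = 0.368, edgeR) were not called. Hmgb2, Hmgb1 and Hmgn2 were thus called within each of these kinds.

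In monocytes and macrophages Hmgb2 was at 996 ± 144 CPM in cycling cells (774 to 1208) and at 246 ± 29.2 in the others (191 to 295), a log2 difference of 2.03 (SE 0.06, adjusted p = 7.56e-15, edgeR). The other HMG genes rose as well: Hmgn2 by 1.59 (SE 0.08; 491 ± 71.6 against 164 ± 20.2 CPM), Hmgn1 by 1.29 (SE 0.12; 144 ± 41.3 against 58.4 ± 14.2), Hmgb1 by 1.08 (SE 0.06; 724 ± 108 against 344 ± 25.6) and Hmgn5 by 0.99 (SE 0.17). Each was higher in cycling cells of 14 of 14 mice, with adjusted p of 0.000156 or less. On the receptor side, Cd14 was at 879 ± 200.2 CPM (526 to 1192) against 1415 ± 132 (1238 to 1711), without overlap, a log2 difference of -0.71 (SE 0.08, adjusted p = 1.47e-06, edgeR). Tlr4 was at 40.5 ± 15.9 against 69.1 ± 11.5 CPM and fell by 0.84 (SE 0.15, adjusted p = 0.000248, edgeR), lower in 14 of 14 mice. Ly96 fell by 0.73 (SE 0.22, adjusted p = 0.0247, lower in 12 of 14 mice) and Myd88 by 0.59 (SE 0.17, adjusted p = 0.0136, lower in 13 of 14). Hmgn3 differed by 1.27 (adjusted p = 0.306). Of 11214 genes, 10.2% were called higher and 10.2% lower.

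The 2 sides of this comparison did not hold the same cells. Macrophages made up 96.9% of the cycling cells and 59.1% of the others, monocyte markers summed to a median of 3198 against 6359 CPM, and T cell markers to 1456 against 991 CPM. The median depth was 159455 against 56019.5 reads, and 80.6% against 36.2% of cells had a high doublet score. Within macrophages alone the 5 HMG genes rose again, and Tlr4 (-0.50, adjusted p = 0.0251) and Cd14 (-0.45) fell by less, while Ly96 (-0.79, adjusted p = 0.0930) and Myd88 (-0.08, adjusted p = 0.857) were not called. Without cells of high doublet score, which left 6 mice, Hmgn1, Hmgn2, Hmgb1, Hmgb2 and Cd14 were called and the other 4 were not. Among cells of at least 50000 reads 8 were called, all but Myd88 (-0.41, adjusted p = 0.120).

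In NK cells only 3 mice had 5 or more cycling cells, and these gave 19 cycling and 264 other cells. Hmgb2 was at a mean of 987 CPM in the cycling cells and 409 in the others and rose by 1.32 (SE 0.24, adjusted p = 0.0381, edgeR), where 0.447% of 8505 genes were called higher and 0.388% lower. With Mki67 alone as the mark, which left 12 mice, Hmgb2 (1.44) and Hmgn2 (1.34, adjusted p = 0.0191) were called.

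**Figure D5:**
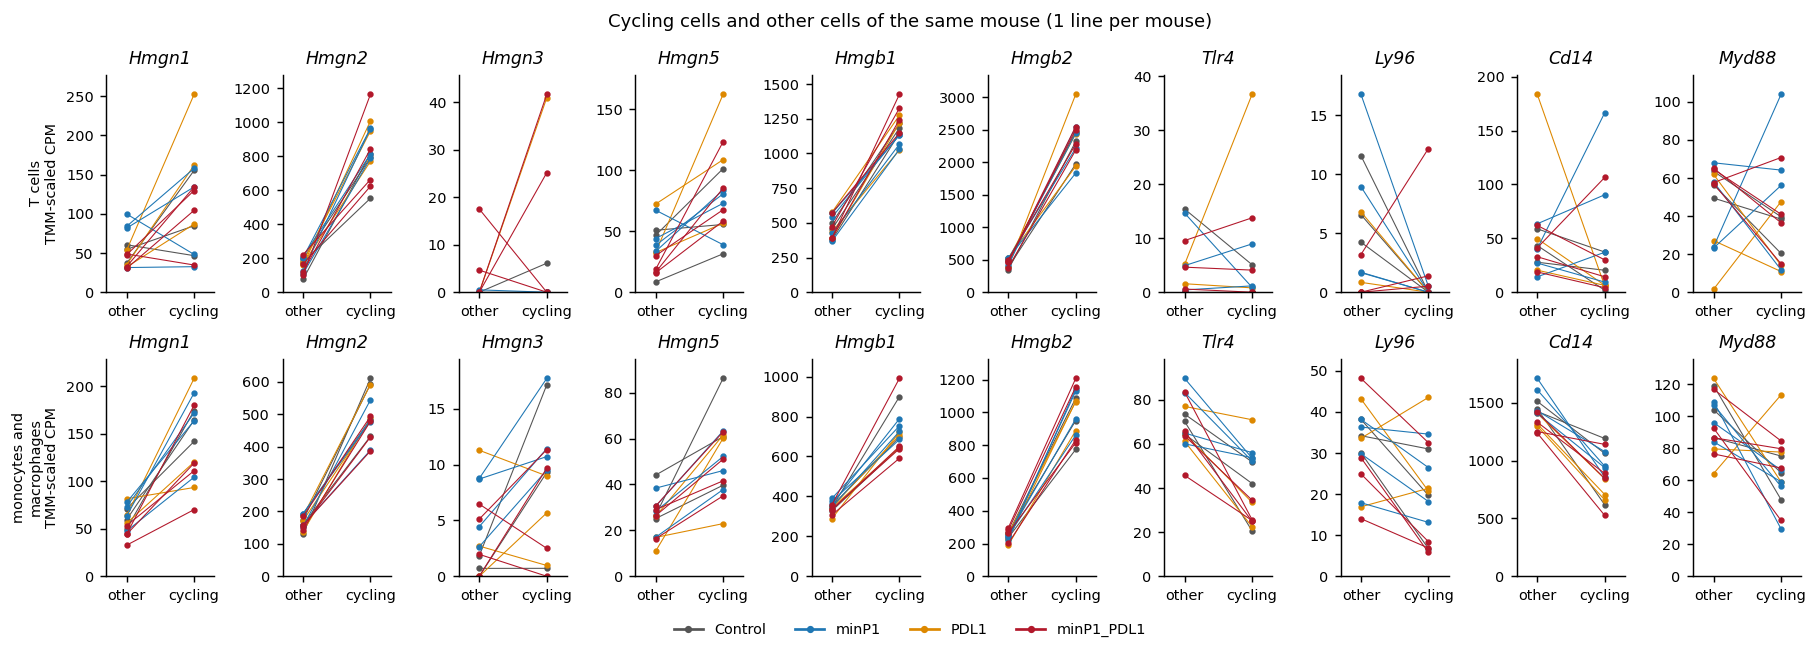
The members in cycling and other cells of the same mouse (TMM-scaled CPM on the vertical axis, 1 line per mouse coloured by treatment group, T cells in the upper row, monocytes and macrophages in the lower row). Hmgb2 lies at 1832 to 3042 CPM in cycling T cells and at 347 to 528 CPM in the others, and Cd14 is lower in the cycling cells of all 14 mice in monocytes and macrophages.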

How the data were processed

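The deposited table holds read counts per gene and cell, for 14 mice told apart by hashtags. Per the submitters' processing notes and design text, the authors removed adapters (cutadapt 2.10), mapped the reads to mm10 transcripts (Bowtie2 2.3.4.1), used hashtags to place cells and find doublets, and worked in Seurat 2.3.4. The annotation behind their gene names is not given in the sources used here, so loci and copies come from GENCODE M21 (BLAST 2.17.0). The 147 barcodes of no mouse were left out.

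Cells with over 25% mitochondrial reads were removed, and the rest clustered with scanpy 1.11.5 and leidenalg 0.10.2 (2000 variable genes, 30 components, 20 neighbours, resolution 1) without 74 genes, the members and lists. A cluster took a name only with at least 3 marker genes among its leading 50. A doublet score came from 50 neighbours among simulated doublets, with 0.5 as the limit. Reads were summed per mouse and class where at least 10 cells were present (5 on both sides for cycling cells). The main test was edgeR 4.0.16 (quasi-likelihood, TMM, two-sided, adjusted p under 0.05, R 4.3.3), with all 4 groups in 1 fit. In simulated data it recovered 67% of 2-fold and 94% of 4-fold changes in all CD45+ cells (18410 genes), and 55% and 95% in monocytes and macrophages (14857 genes). The simulation changed 100 genes at each fold together, all above a floor of expected reads. The adjusted threshold is easier to pass with so many changed genes, so these shares are not the power for a single or sparse member. The other classes were not simulated. Alternatives were DESeq2 1.42.0, limma 3.58.1 with cells weighted equally, other scaling, filters and clusterings, no high doublet scores and each mouse left out in turn. The reads of copies, the limit of 50000 reads per cell and the fits within macrophages, CD8 T cells and regulatory T cells alone were chosen after seeing the data. The members and lists were chosen with earlier results of these data known. All 10 members were named in every class. Of the lists, genes past the threshold were to be named, or else the 3 of smallest p for minP1 in monocytes and macrophages, and for each member the 3 genes most like it.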

Additional observations from a re-analysis of the deposited data

Results flagged for a closer look

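In groups of 4 mice, 1 mouse stood far from the other 3 in 11 of the 119 gene, class and group combinations examined (9.24%), where chance gives about 1 in 20. Values are TMM-scaled CPM. Those with appreciable levels were Hmgb2 in NK cells, at 581 in minP1 mouse 2 and 441 to 462 in the others, and Hmgb2 in dendritic cells, at 594 in minP1 mouse 3 and 394 to 415 in the others. Hmgn2 in T cells was at 539 in minP1_PDL1 mouse 2 and at 310 to 348 in the others. Cd14 was at 740 in dendritic cells of minP1_PDL1 mouse 3, against 374 to 391, and at 2861 in neutrophils of minP1 mouse 2, against 1987 to 2133. The former is the mouse that joined the Control range in the dendritic cell comparison. Ly96 in monocytes and macrophages was at 38.6 in minP1_PDL1 mouse 4, against 14.5 to 17.9. Myd88 in T cells was at 29.4 in minP1 mouse 3, the one low value, against 55.0 to 59.9. The remaining 4 were sparse: Hmgn3 in NK cells at 1.62 in minP1_PDL1 mouse 1 and in neutrophils at 1.21 in minP1_PDL1 mouse 2, each against 0 in the others, Hmgn3 in T cells at 6.92 in minP1 mouse 3 against 0 to 0.200, and Ly96 in T cells at 5.30 in minP1_PDL1 mouse 1 against 0 to 0.373.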

How the results depend on the processing

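No member was called between treatments under any of the 25 settings run, leaving out single mice included (0 in each class). With a replicate block (the replicate number as a block) the count was also 0 in every class, and the block changed no call. Between mice sharing a number, the mean correlation of deviations in all CD45+ cells was 0.0177, over 19 pairs that ran from -0.0686 to 0.181. Such a mean cannot show whether some of these mice shared more than a number. DESeq2 called up to 147 genes in a comparison where edgeR called 0, limma with equal weight per cell up to 20 and edgeR without single mice up to 4, none of them a member. Equal weight per cell turned the sign of 78 of 348 treatment differences and the removal of high doublet scores that of 71 of 342. The difference of Myd88 in neutrophils between PDL1 and Control was -0.33 without high doublet scores, and the cause was not tested. In cycling cells, 3 members were called in T cells of at least 50000 reads, 3 in CD8 T cells alone and 3 in regulatory T cells alone, fits with fewer cells and mice, and 5 in monocytes and macrophages without high doublet scores, again with fewer mice. In NK cells 2 were called by DESeq2, 2 without a filter on low counts and 2 with Mki67 alone. Leaving out single mice left 5 in T cells and 9 in monocytes and macrophages throughout, and was not run for the 3 mice of the NK comparison. With equal weight per cell the Tlr4 level of neutrophils was 346 CPM and their Cd14 level 2985, and without high doublet scores they were 421 and 3701. Reads were not collapsed to molecules, and few reads limit what can be said of Ly96, Hmgn3 and, in lymphocytes, Tlr4.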
